A study of Homo sapiens with 6 samples.

Results

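Complement is a cascade of plasma and cell surface proteins that tags and lyses targets. In the classical pathway, the proteases C1r and C1s start the cascade from antibody or other bound surfaces. In the alternative pathway, C3 and factor B assemble the convertase that amplifies it. Host cells hold the cascade back with soluble regulators and with the membrane proteins CD46, CD55 and CD59. The liver supplies most circulating complement, but epithelial cells, lung tumor cells among them, also transcribe parts of the cascade and its membrane regulators. The 9 complement genes C1R, C1S, C3, CFB, SERPING1, CFI, CD46, CD55 and CD59 were chosen by their symbols, and all 9 were found among the 27216 rows of the expression table.

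The samples were 6 RNA-sequencing libraries of H1975 cells, an established human EGFR-mutant non-small cell lung cancer (NSCLC) line that the labels give as wild type (WT), naming no transgene or deletion. The 3 parental samples were taken at 0 h and the 3 adapted samples after 72 h of osimertinib (Osi), an EGFR tyrosine kinase inhibitor, at a concentration that is unsure. The labels give 1000 nM for all 6 samples, the parental ones at 0 h included. The study names the same concentration for other culture assays, and its reagent list names a lower one. Apoptotic cells had been washed away before extraction, so the adapted samples are the cells that stayed, and loss of some cells and a change within the rest cannot be told apart. In bulk RNA, fewer cells that express a gene and less RNA per cell cannot be told apart either. The labels describe a digestion of linear RNA with RNase R before library preparation, whereas the methods of the study name total RNA only, and which holds for these libraries was not settled. The columns of the parental samples are named for DMSO, and it is not stated whether these cells were kept in DMSO or for how long. By the labels no vehicle sample was taken at 72 h, so Osi and the time in culture cannot be told apart. The study states in general that its data came from independent experiments. No source says for these libraries whether the 3 samples of a group were separate cultures. The p-values therefore set each difference against the spread between these samples, which may be technical.

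Values are log2(FPKM + 1). FPKM, taken from the values because the table names no unit, is the fragment count scaled by transcript length and by the total of mapped fragments. The read depth of the samples is unknown, and the linear values sum to 375342 to 387753 per sample. Rows with a mean of at least 1 were compared with limma, and a row was called when its Benjamini-Hochberg adjusted p over all 12656 rows tested was under 0.05. Differences are adapted minus parental on this log2 scale, and for low genes they come out smaller than the change in FPKM itself. Adapted replicate 1 stood apart: its correlation across all rows was 0.991 with each of the other adapted samples, against 0.996 between those, and it was the adapted sample nearest to the parental mean in 48.0% of the rows tested. The median SD over the rows tested was 0.0576 in parental and 0.129 in adapted samples. The limma fit used a single variance per row for both groups, so standard errors and p-values take these spreads as equal. All values of the 9 genes had the same decimal pattern as the bulk of the table, and none carried the added constants found in 147 other rows.

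The cells carried an epithelial profile in both groups. The summed FPKM of 6 epithelial markers (EPCAM, CDH1, KRT7, KRT8, KRT18 and KRT19) was 3710 to 3742 in parental and 3491 to 3788 in adapted samples, with KRT7 higher, KRT8, KRT18 and KRT19 lower and the other 2 not past the threshold. Of 8 leukocyte markers, 7 were too low to test, with PTPRC (CD45) at 0 in all parental samples and at 0.02 to 0.08 on the log2 scale in adapted samples. The summed FPKM of the leukocyte list was 75.4 to 77.9 in parental and 15.6 to 30.0 in adapted samples, nearly all of it from CD68, a lysosomal protein. Of 6 fibroblast markers, COL1A1 was the only one tested, and the summed FPKM of that list went from between 3.04 and 3.17 to between 8.60 and 9.33. The hepatocyte markers ALB and TTR were at 0 in every sample, while the fibrinogen chain FGB gave almost the whole summed FPKM of that list, 63.3 to 66.2 in parental samples and 102, 25.0 and 14.6 in adapted replicates 1, 2 and 3. Of 3 endothelial markers none was tested, and their summed FPKM was 1.13 to 1.86 in parental and 1.42 to 3.47 in adapted samples. Within that list PECAM1 was at 0.994 to 1.63 FPKM in parental and 0.053 to 0.076 FPKM in adapted samples, and CDH5 was at 0.121 to 0.205 FPKM and 1.28 to 3.22 FPKM, neither with overlap. The part of these values in the complement results was not tested.

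H1975 cells expressed 8 of the 9 complement genes well above the filter. C1R, C1S and C3, which start or carry the cascade, fell in adapted cells, and CFI, CD46 and CD59, which restrain it, rose. The CD46 call was lost in some alternative fits. Among other complement genes described below the split was mixed. The regulator CLU rose, but the regulator C4BPA fell and the component CFD rose. The component C2 and the regulator C4BPB also fell, but both passed the filter on low values only through their parental level. CFB and CD55 were not past the threshold, and SERPING1 was close to 0 in all samples and was not tested. Thus 6 of 8 tested genes were called, 3 higher and 3 lower, where limma called 56.9% of all rows tested, 30.7% higher and 26.2% lower, so the number called is not particular to complement. The groups did not overlap in the same 6 genes, against 66.3% of all rows tested. The median difference of the 8 genes was 0.16, beside 0.028 over all rows tested.

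**Figure D1:**
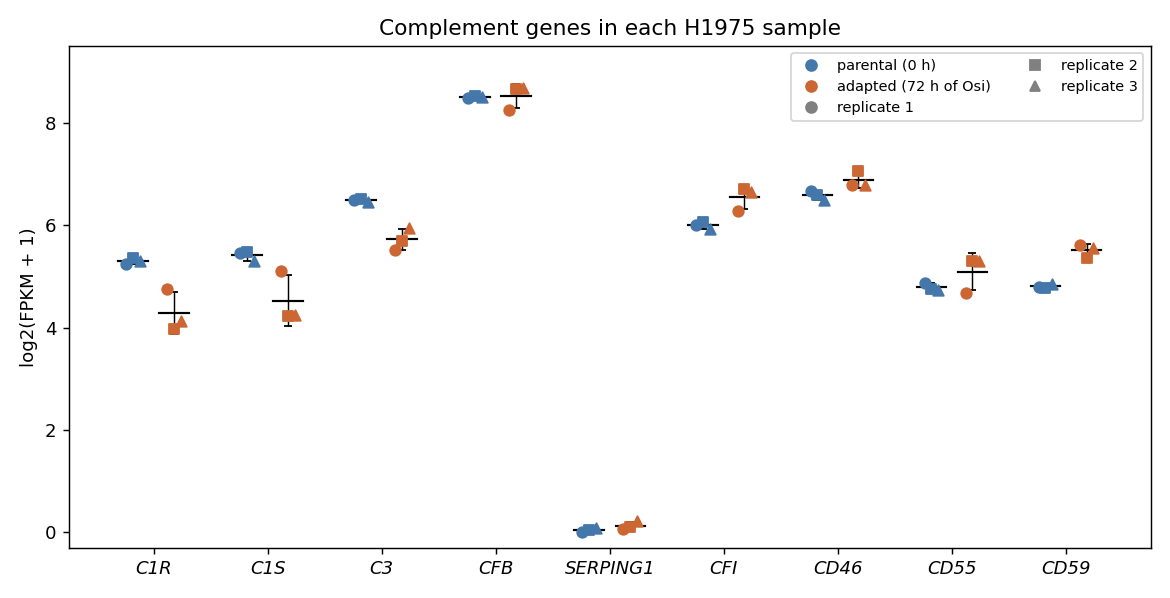
Values of the 9 complement genes in each sample. The vertical axis is log2(FPKM + 1), points are single samples (blue, parental; orange, adapted; circle, square and triangle, replicates 1, 2 and 3), horizontal lines are group means and vertical bars the SD (n = 3 each). The adapted points lie below all parental points in C1R, C1S and C3, and above them in CFI, CD46 and CD59. In CFB and CD55 adapted replicate 1 lies below and the other adapted samples above all parental points, and in SERPING1 the ranges overlap.

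C1R and C1S encode the paired serine proteases of the C1 complex, which are activated in turn and then cleave C4 and C2. C1R was at 36.97, 40.05 and 38.35 FPKM in parental replicates 1, 2 and 3 and at 25.93, 14.66 and 16.48 FPKM in adapted replicates 1, 2 and 3. All adapted samples were below all parental samples, and adapted replicate 1 was the highest of the adapted samples. The log2 level went from 5.30 ± 0.06 to 4.28 ± 0.41 (SD, n = 3 each), a difference of -1.02 (standard error 0.19, limma, adjusted p = 0.00281). C1S was at 42.80, 43.55 and 38.15 FPKM in parental and at 33.46, 17.60 and 18.03 FPKM in adapted replicates 1, 2 and 3. As with C1R, adapted replicate 1 was nearest to the parental samples, without reaching them. The log2 level of C1S went from 5.41 ± 0.10 to 4.52 ± 0.50 (SD, n = 3 each), a difference of -0.88 (standard error 0.23, limma, adjusted p = 0.0127).

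The levels of the 2 proteases stayed close to each other. FPKM of C1R per FPKM of C1S was 0.864, 0.920 and 1.01 in parental and 0.775, 0.833 and 0.914 in adapted replicates 1, 2 and 3, ranges that overlap. The adapted spread of these genes was among the widest in the table, with an SD above that of 95.2% (C1R) and 97.3% (C1S) of the rows tested. Without adapted replicate 1 the differences were -1.25 for C1R (limma, adjusted p = 5.40e-06) and -1.17 for C1S (limma, adjusted p = 8.23e-06). When any other single sample was left out, the calls were weaker. The adjusted p (limma) was then 0.0096 to 0.0134 for C1R and 0.0301 to 0.0477 for C1S, the latter close to the threshold. C1S lost its call when all rows were tested without the filter on low values (limma, adjusted p = 0.0762).

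The genes lie side by side on chromosome 12 in GENCODE v29 (GRCh38), C1S at chr12:6988259-7071032 on the plus strand and C1R at chr12:7080199-7092607 on the minus strand, 9.17 kb apart. C1RL, a C1r-like protease gene at chr12:7089587-7109273 on the minus strand, overlaps C1R, and 672 of the 5885 annotated exonic bases of C1R (11.4%) are also exonic in C1RL, so reads from this stretch are uncertain. C1RL was at 37.74, 36.74 and 36.99 FPKM in parental and at 36.84, 42.39 and 45.44 FPKM in adapted replicates 1, 2 and 3. Its groups overlapped and its difference of 0.15 was not past the threshold (limma, adjusted p = 0.15, 95% interval -0.04 to 0.35). C1S shares 229 exonic bases (3.54%) with EMG1, whose difference of -0.23 was also not past the threshold (limma, adjusted p = 0.0753).

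C3 encodes the component on which all pathways converge, and its cleavage products coat targets and feed the alternative pathway. C3 was at 88.72, 90.45 and 86.42 FPKM in parental and at 44.94, 50.89 and 60.51 FPKM in adapted replicates 1, 2 and 3. The adapted samples were all well below the parental samples, and here adapted replicate 1 was the farthest from them. The log2 level fell from 6.48 ± 0.03 to 5.72 ± 0.21 (SD, n = 3 each), a difference of -0.76 (standard error 0.10, limma, adjusted p = 7.23e-04), and the call held in every other fit run at the same threshold. C3 lies at chr19:6677704-6730562 on the minus strand.

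CFB encodes factor B, the serine protease that joins C3b in the alternative pathway convertase. It was the most abundant of the 9 genes per length of transcript, above 99.0% of the rows tested in parental samples. CFB was at 357.4, 367.5 and 361.3 FPKM in parental and at 304.1, 401.4 and 406.0 FPKM in adapted replicates 1, 2 and 3. The groups overlapped in range because adapted replicate 1 was below all parental samples and the other adapted samples were above them. The log2 level averaged 8.50 ± 0.02 in parental and 8.52 ± 0.24 in adapted samples (SD, n = 3 each). The difference of 0.02 was not past the threshold (limma, adjusted p = 0.891, 95% interval -0.25 to 0.30). Without adapted replicate 1, CFB was called higher (difference 0.16, limma, adjusted p = 0.0253), and without adapted replicate 2 or 3 the sign of the difference turned (-0.04 and -0.05).

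Relative to C3, factor B transcript was more abundant in every adapted sample. C3, the divisor, was called lower and CFB was not past the threshold, so this ratio is not a result separate from the lower C3. FPKM of CFB per FPKM of C3 was 4.03, 4.06 and 4.18 in parental and 6.77, 7.89 and 6.71 in adapted replicates 1, 2 and 3, so these ranges do not overlap, adapted replicate 1 included. CFB lies at chr6:31945650-31952084 on the plus strand, where its annotated start overlaps the end of C2 by 23 exonic bases. An annotated protein-coding gene, AL645922.1, shares 45.0% of the exonic bases of CFB and was at 1.54 FPKM in adapted replicate 2, at 0.137 FPKM in parental replicate 1 and at 0 in the other samples. How the authors' counting split reads between these genes is not given in the sources used here.

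SERPING1 encodes the C1 inhibitor, the serpin that inactivates C1r and C1s. SERPING1 was at 0, 0.033 and 0.058 FPKM in parental and at 0.046, 0.069 and 0.163 FPKM in adapted replicates 1, 2 and 3. All 6 values were close to 0 and the groups overlapped, so the gene was hardly detected in either group, and no fold change is given. It failed the filter on low values. The gene lies at chr11:57597387-57614853 on the plus strand.

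CFI encodes factor I, the protease that inactivates C3b and C4b with the help of cofactors such as CD46. CFI was at 63.51, 65.56 and 59.78 FPKM in parental and at 76.21, 103.6 and 99.83 FPKM in adapted replicates 1, 2 and 3. All adapted samples were above all parental samples, with adapted replicate 1 the lowest of them. The log2 level rose from 5.998 ± 0.067 to 6.55 ± 0.24 (SD, n = 3 each), a difference of 0.55 (standard error 0.12, limma, adjusted p = 0.00596), and the call held in every other fit run at the same threshold. CFI lies at chr4:109740694-109802179 on the minus strand. AC126283.2, an annotated protein-coding gene on the same strand, shares 32.0% of the exonic bases of CFI and was at 5.64 FPKM in adapted replicate 1 and at 0 in the other 5 samples. The part of this row in the lower CFI value of adapted replicate 1 was not tested.

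FPKM of CFI per FPKM of C3 was 0.716, 0.725 and 0.692 in parental and 1.70, 2.04 and 1.65 in adapted replicates 1, 2 and 3. Transcript of the inactivating protease was thus lower than that of C3 in all parental samples and higher in all adapted samples. This ratio combines the higher CFI and the lower C3 already given and is not a separate result.

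CD46, CD55 and CD59 are the membrane regulators carried by most human cells. CD46, a transmembrane cofactor for factor I, was at 100.5, 95.35 and 89.01 FPKM in parental and at 109.5, 132.1 and 109.3 FPKM in adapted replicates 1, 2 and 3. The groups did not overlap, but the gap between the highest parental and the lowest adapted sample was smaller than the SD of the adapted group. The log2 level rose from 6.58 ± 0.09 to 6.88 ± 0.16 (SD, n = 3 each), a difference of 0.29 (standard error 0.09, limma, adjusted p = 0.0285). This call was lost without the filter on low values (limma, adjusted p = 0.0869), without parental replicate 2 (0.0789), without parental replicate 3 (0.105) and without adapted replicate 2 (0.0568), with differences of 0.20 to 0.34 over the 6 fits that left out a sample.

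CD55, also called decay-accelerating factor, is held in the membrane by a glycosylphosphatidylinositol (GPI) anchor and breaks up the C3 convertases. CD55 was at 28.31, 25.81 and 25.60 FPKM in parental and at 24.60, 38.31 and 38.57 FPKM in adapted replicates 1, 2 and 3. Adapted replicate 1 was below all parental samples and the other adapted samples were above them, the same arrangement as in CFB. The log2 level averaged 4.78 ± 0.08 in parental and 5.09 ± 0.36 in adapted samples (SD, n = 3 each). The difference of 0.31 was not past the threshold (limma, adjusted p = 0.146, 95% interval -0.08 to 0.70). Without adapted replicate 1 the difference was 0.52 and past it (limma, adjusted p = 2.30e-04).

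CD59 is a small GPI-anchored protein that stops the membrane attack complex from forming. CD59 was at 26.59, 26.32 and 27.99 FPKM in parental and at 47.69, 40.19 and 45.78 FPKM in adapted replicates 1, 2 and 3. All adapted samples were far above all parental samples, and adapted replicate 1 was the highest. The log2 level rose from 4.81 ± 0.05 to 5.51 ± 0.13 (SD, n = 3 each), a difference of 0.70 (standard error 0.08, limma, adjusted p = 2.52e-04). This was the highest increase among the 9 genes, above 89.6% of the differences of all rows tested, and the call held in every other fit run at the same threshold. CD59 lies at chr11:33703010-33736491 on the minus strand and shares 6.07% of its exonic bases with AL049629.2, which was too low to test.

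The summed FPKM of the membrane regulators was 155, 147 and 143 in parental and 182, 211 and 194 in adapted replicates 1, 2 and 3. This sum was not tested. It includes CD46, whose call was lost in some fits, and CD55, which was not past the threshold. CD46 held the largest share in every sample, 62.4% to 64.7% in parental and 56.4% to 62.7% in adapted samples. CD59 held 17.1% to 19.6% in parental and 19.1% to 26.2% in adapted samples, and CD55 held 17.5% to 18.2% and 13.5% to 19.9%. All 3 shares overlapped between groups.

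**Figure D2:**
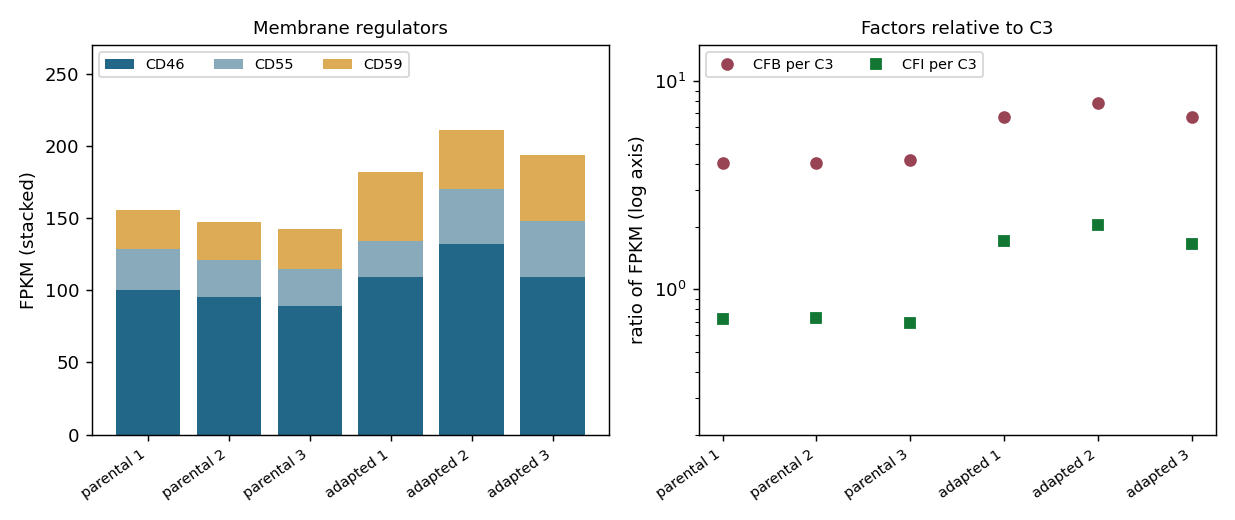
Left, FPKM of CD46, CD55 and CD59 stacked for each sample. Right, FPKM of CFB (circles) and CFI (squares) divided by FPKM of C3 in each sample, on a log axis. Each ratio is higher in all 3 adapted samples than in all 3 parental samples, and C3, the divisor, was itself called lower. The stacked sum goes from at most 155 to at least 182, was not tested, and has CD46 as its largest part.

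The offset of adapted replicate 1 from the other adapted samples differed in sign between genes. Adapted replicate 1 was above the mean of the other adapted samples in C1S (by 0.87 on the log2 scale), C1R (0.70) and CD59 (0.15). It was below that mean in CD55 (-0.62), CFI (-0.41), CFB (-0.41), C3 (-0.30) and CD46 (-0.13). Of the 8 tested genes, adapted replicate 1 was nearest to the parental mean in 4, beside 48.0% of all rows tested. Without adapted replicate 1 all 8 tested genes were called, 5 higher and 3 lower, and 8370 of the 12656 rows tested were called in that fit.

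**Figure D3:**
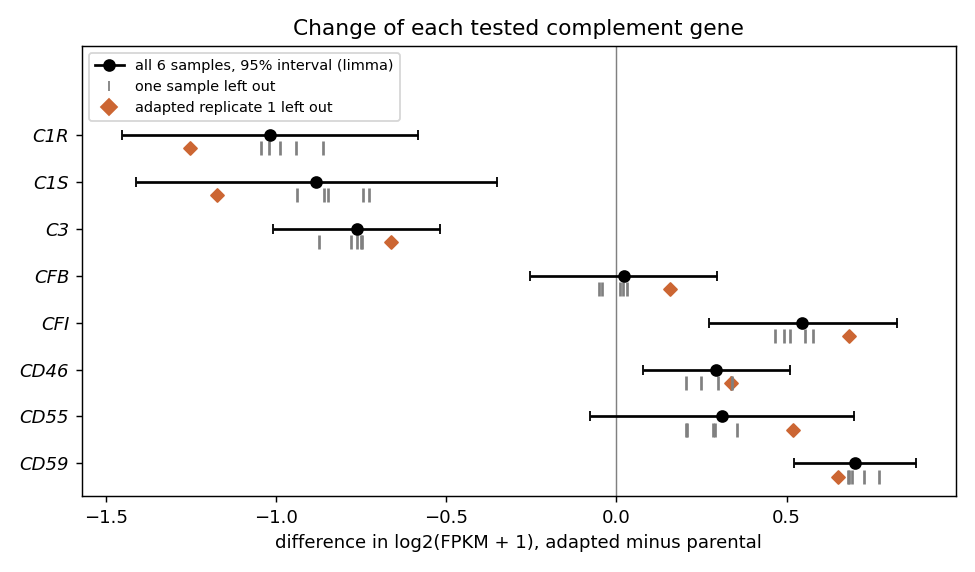
Difference in log2(FPKM + 1), adapted minus parental, of the 8 tested genes. Black points and bars are the limma estimate and its 95% interval from all 6 samples, grey ticks are fits that left out 1 sample and orange diamonds the fit without adapted replicate 1; the interval holds 0 for CFB and CD55 only, and the diamonds of these genes lie at 0.16 and 0.52.

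To place the 9 genes in the pathway, a list of 62 complement genes was examined. Of these, 42 stayed under 1 on the log2 scale in all samples and 19 of them were at 0 throughout, and 17 passed the filter. Of the 17, limma called 6 higher and 7 lower (76.5% called, beside 56.9% of all rows tested), with a median difference of 0.02 beside 0.028 over all rows tested. Among the lower calls, C2 and C4BPB passed the filter only through their parental level. All 9 lectin pathway genes and all 7 terminal pathway genes from C5 to C9 were too low to test. The C1q chains C1QA and C1QC were at 0 in all samples and C1QB at 0 in 5 of 6. C4A and C4B, which are nearly identical and share reads, were also too low to test.

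Among the other components, C2, which supplies the protease of the classical C3 convertase, fell from 1.84 ± 0.15 to 0.86 ± 0.17 (SD, n = 3 each), a difference of -0.98 (limma, adjusted p = 4.74e-04). CFD, the protease that activates factor B, rose by 0.48 from a low level (limma, adjusted p = 0.0317). C2 passed the filter on low values only through its parental level.

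The soluble regulators moved in opposite directions. C4BPA, the alpha chain of the C4b-binding protein, was at 15.79, 15.81 and 15.21 FPKM in parental and at 8.18, 6.88 and 5.21 FPKM in adapted replicates 1, 2 and 3, and fell, with a difference of -1.12 (limma, adjusted p = 4.03e-04). Its beta chain C4BPB fell by 0.57 (limma, adjusted p = 0.0272), and it passed the filter on low values only through its parental level. CLU, which encodes clusterin, a secreted chaperone that also binds terminal complement complexes, was at 1.18, 1.57 and 1.30 FPKM in parental and at 23.25, 10.26 and 11.63 FPKM in adapted replicates 1, 2 and 3. CLU had the greatest difference of the 17 tested genes, 2.69 (standard error 0.27, limma, adjusted p = 1.69e-04). Of the receptors, ITGB2, the beta chain of complement receptors 3 and 4, rose by 0.27 (limma, adjusted p = 0.00939) while its alpha partners ITGAM and ITGAX were too low to test. C1QBP, a mostly mitochondrial protein that can bind C1q, fell by 0.45 (limma, adjusted p = 0.0334).

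**Figure D4:**
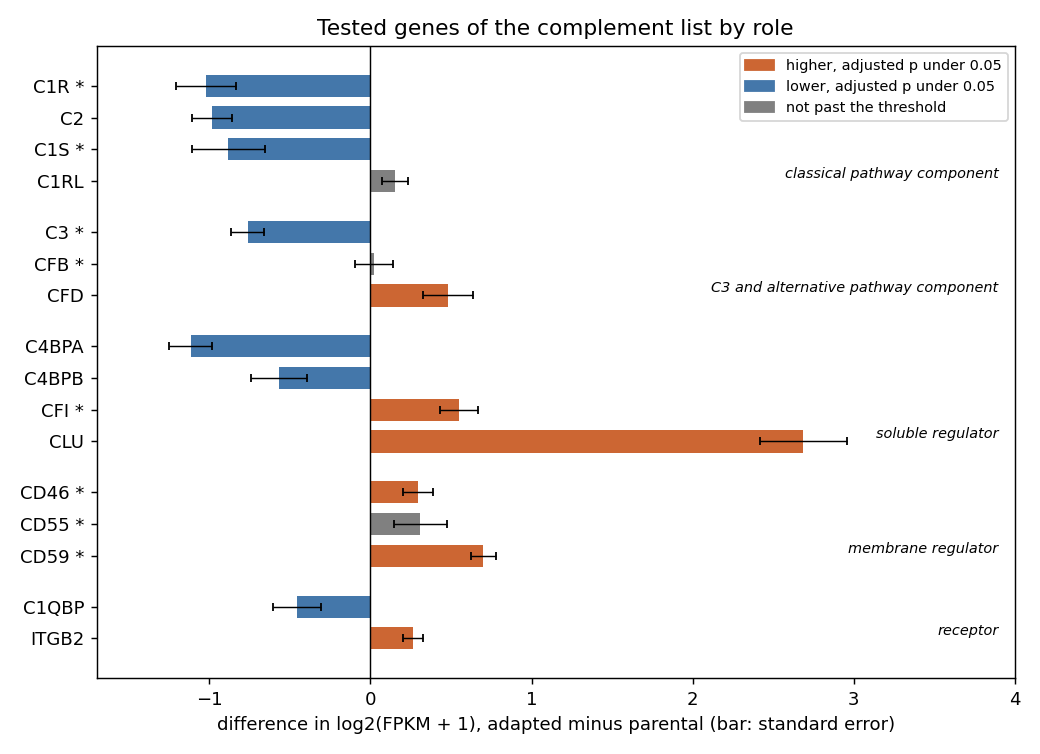
Difference in log2(FPKM + 1), adapted minus parental, of tested genes of the complement list, grouped by role, with 1 tested gene not shown; bars to the right are higher in adapted cells, whiskers are the standard error, asterisks mark the 9-gene set and color marks the limma call. C1R, C2, C1S, C3, C4BPA, C4BPB and C1QBP extend to the left past the threshold, and CLU reaches farthest to the right.

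Genes that neighbor each other on chromosome 1 did not share a direction. C4BPB, C4BPA, CD55 and CD46 follow each other within less than a megabase on the plus strand, CD55 at chr1:207321376-207386804 and CD46 at chr1:207752057-207795513, with CR2 and CR1 between them. The C4BP genes fell, CD46 rose, CD55 was not past the threshold, and CR2 and CR1 were too low to test. On chromosome 6, C2 fell while CFB, which starts where C2 ends, was at 0.02.

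CD55 and CD59 reach the surface only with a GPI anchor, so 29 genes for synthesis, transfer and remodelling of the anchor were examined. Of 28 tested, 11 rose, 6 fell and 11 were not past the threshold, with a median difference of 0.15. The share called, 60.7%, was near the 56.9% of all rows tested. The greatest increases were in PIGW (1.12, limma, adjusted p = 6.33e-05), an inositol acyltransferase, PGAP3 (0.83, adjusted p = 4.58e-05), which remodels the lipid, and PIGM (0.68, adjusted p = 2.91e-04), a mannosyltransferase. The greatest decreases were in PIGA (-0.89, adjusted p = 2.63e-04), the catalytic subunit of the first step, PIGP (-0.79, adjusted p = 0.0031), a subunit of the same enzyme, and PIGL (-0.73, adjusted p = 2.87e-04), which acts next.

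Complement genes are known to respond to inflammatory cytokines, so 27 genes of such cytokines, their receptors and transcription factors were examined. Of 24 tested, 5 rose and 12 fell (70.8% called, beside 56.9% of all rows tested, 30.7% higher and 26.2% lower), with a median difference of -0.18 beside 0.028 over all rows tested. Of the cytokines, IL1A fell from 5.77 ± 0.06 to 0.95 ± 0.03 and IL1B from 5.72 ± 0.04 to 1.35 ± 0.20 (SD, n = 3 each), and IFNG was at 0 in all samples. IL1A passed the filter only through its parental level. CEBPD, a factor of the acute phase response, fell from 6.28 ± 0.07 to 4.51 ± 0.20 (SD, n = 3 each), a difference of -1.77 (limma, adjusted p = 1.66e-05). STAT2, a component of the interferon-responsive complex ISGF3, rose by 1.44 (limma, adjusted p = 4.32e-04), LIFR by 0.73 (0.00881) and IL6ST by 0.57 (0.00128).

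RefSeq promoter windows (GRCh38.p14) were matched for 6 of the 9 genes, with none in the table used for C1S, C3 or SERPING1. The 250 bases before each annotated start were searched on both strands for TTCNNNGAA (STAT), GAAANNGAA (interferon-stimulated response element, ISRE), TTGCNNAA (C/EBP), TGANTCA (AP-1) and the NF-kB motif, of which 6.57%, 6.88%, 9.05%, 6.57% and 12.3% of all 35116 windows hold at least 1 match. A GAAANNGAA or NF-kB match can overlap a STAT match. The CFB window held a STAT, an ISRE and an NF-kB match, 84 to 139 bases before the start. That start, at chr6:31946095, lies inside the GENCODE span of CFB, and so do these matches. The windows of CFI, CD46 and CD55 held none of these motifs. C1R, with 2 annotated starts, held C/EBP matches before both and a STAT match before the inner one, all inside the GENCODE span of C1R. CD59, with 4 annotated starts, held STAT, NF-kB, C/EBP or AP-1 matches, depending on the start. Its C/EBP and AP-1 matches lie inside the GENCODE span of CD59. These are matches of letters, and no binding was measured.

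The stretches of these windows that lie outside all annotated exons are shown for CD59, which rose most, for CD46, the other membrane regulator that rose, and for C1R, which fell most. Each is written 5′ to 3′ on the strand of the gene, with motif matches in capitals, the NF-kB match before the STAT match in CD59. The regions are chr11:33736492-33736729 (minus strand), chr1:207751804-207752053 (plus strand) and chr12:7092608-7092695 (minus strand).
CD59: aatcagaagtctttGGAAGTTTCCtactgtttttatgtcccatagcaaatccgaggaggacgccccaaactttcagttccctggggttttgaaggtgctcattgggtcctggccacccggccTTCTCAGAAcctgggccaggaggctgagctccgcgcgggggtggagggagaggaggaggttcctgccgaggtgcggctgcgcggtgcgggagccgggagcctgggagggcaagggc
CD46: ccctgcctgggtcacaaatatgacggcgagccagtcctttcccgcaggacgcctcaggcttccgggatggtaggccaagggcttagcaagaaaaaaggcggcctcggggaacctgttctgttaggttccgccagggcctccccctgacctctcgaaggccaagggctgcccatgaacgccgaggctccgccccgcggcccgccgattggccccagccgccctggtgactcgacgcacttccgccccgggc
C1R: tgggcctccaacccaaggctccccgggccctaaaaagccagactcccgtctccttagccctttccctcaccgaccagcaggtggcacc
The CD46 and C1R stretches held no match.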

How the data were processed

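RNA from 6 H1975 samples, 3 parental and 3 adapted, was sequenced. The authors deposited a single table of log2 values that names no unit, and log2(FPKM + 1) was inferred from the values. The submitters' processing notes name hg38, STAR, Bowtie2 2.1.0 and edgeR, and the quantifier and the annotation are not given in the sources used here. The methods of the study name a test that needs counts, so limma 3.58.1 (R 4.3.3) was used on the deposited log2 values. Columns were matched to samples by group and replicate number, and 0 columns were left unmatched.

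Rows with a mean of at least 1 were fitted with an intensity trend and no replicate block. p-values were adjusted by the Benjamini-Hochberg method over all rows tested, and the threshold was 0.05. The pipeline was tested on simulated data. Read depth is unknown, so no counting error can be given. In 147 rows, none of them of the 9 genes or the lists, values carried an added constant of 0.66, 0.65 or 0.2.

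The 9 genes and the gene lists were chosen with earlier results of these data known. Named were the 9 genes, per role up to 3 complement genes past the threshold that rose most and 3 that fell most, tested components and membrane regulators, the same numbers from the GPI anchor and inducer lists, and the marker genes. IFNG, the untested receptor and component genes, and the genes that share exons with the 9 genes were named after their values were seen. For 1 gene of the complement list, which is in its counts, no values are reported here. Gene positions are from GENCODE v29 (GRCh38) and promoter windows from RefSeq (GRCh38.p14). Alternatives covered the pseudocount, the filter, the scaling, the moderation of variances, the replicate block, each sample left out, and stricter thresholds.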

Additional observations from a re-analysis of the deposited data

How the results depend on the processing

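Directions held in all fits for the tested genes other than CFB, which was -0.04 without adapted replicate 2, -0.05 without adapted replicate 3 and 0.16 (limma, adjusted p = 0.0253) without adapted replicate 1. Without adapted replicate 1, CD55 was also called (0.52, limma, adjusted p = 2.30e-04). CD46 lost its call when parental replicate 2 (0.30) or 3 (0.25), or adapted replicate 2 (0.20), was left out. Over the fits that left out 1 sample, the differences were -1.25 to -0.86 for C1R, -1.17 to -0.73 for C1S, -0.87 to -0.66 for C3, -0.05 to 0.16 for CFB, 0.04 to 0.11 for SERPING1, 0.47 to 0.68 for CFI, 0.20 to 0.34 for CD46, 0.20 to 0.52 for CD55 and 0.65 to 0.77 for CD59. In those fits 5 to 8 of the 9 genes, 9 to 16 of the complement list and 5763 to 8370 of all rows were called.

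With no filter on low values, C1S (-0.88, limma, adjusted p = 0.0762) and CD46 (0.29, adjusted p = 0.0869) lost their calls. In that fit 4 of the 9 genes were called, beside 8016 of all 27216 rows. With a pseudocount of 0.1, the untested difference of SERPING1 was 0.54. A filter at a mean of 3 left 4532 of the 7693 rows then tested called. At an adjusted p under 0.01, 8 of the 17 tested genes of the complement list were called, beside 5140 of all 12656 rows tested. With an absolute log2 difference of at least 1 as well, 1328 rows, 3 genes of the complement list and 1 of the 9 genes (C1R) were called. The alternatives differ in the rows tested, the samples, the pseudocount or the threshold, and the cause of these changes was not tested. Equal sums without mitochondrially encoded genes gave 59.1% of all calls as higher, against 54.0%, and changed no call among the 9 genes.

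Replicate numbers are shared between groups. Deviations of same-numbered samples correlated at -0.051, -0.031 and -0.020, beside -0.036 to 0.066 for samples of unlike number. With 3 samples per group this cannot settle whether same-numbered samples belong together. With the replicate block, 6761 rows, 11 genes of the complement list and 6 of the 9 genes were called, and no call among the 9 genes changed. Read depth, which is unknown, limits what can be said of the genes near 0.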
